A study of Mus musculus with 35 samples.

Results

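Respiratory chain subunit genes code for the protein parts of the inner mitochondrial membrane complexes that pass electrons to oxygen. Complex I takes electrons from NADH and complex II from succinate, complex III hands them on to cytochrome c, and complex IV, cytochrome c oxidase, reduces oxygen. Complexes I, III and IV pump protons, and ATP synthase uses that gradient to make ATP. Brain tissue depends heavily on this route, and occlusion of a cerebral artery stops the supply of oxygen and glucose to it.

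The genes were chosen by name, as a list of 41 nuclear genes for subunits of complexes I to IV. Of the 41, 40 had a probe set with a single gene symbol on the array, out of 18194 such genes in all, and Cox7b had none listed. Complex I had 22 of them, Ndufa1, Ndufa2, Ndufa3, Ndufa4, Ndufa5, Ndufa6, Ndufa8, Ndufa9, Ndufa10, Ndufb3, Ndufb5, Ndufb7, Ndufb8, Ndufb9, Ndufb10, Ndufs1, Ndufs3, Ndufs4, Ndufs7, Ndufs8, Ndufv1 and Ndufv2. Complex II had all 4 of its subunits, Sdha, Sdhb, Sdhc and Sdhd, and complex III had 6, Uqcrb, Uqcrc1, Uqcrc2, Uqcrfs1, Uqcrq and Cyc1. Complex IV had 8, Cox4i1, Cox5a, Cox5b, Cox6a1, Cox6b1, Cox6c, Cox7a2 and Cox8a. The list held 0 ATP synthase genes, so ATP synthase was followed as a separate list of 17 genes. A gene with several probe sets, as 25 of the 40 had, was represented by the one with the highest mean signal.

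RNA came from brain hemispheres of male FVB mice and was measured on Affymetrix mouse arrays. The surgery groups were mice of the FVB background deficient in the beta2 adrenergic receptor, called knockout here, after middle cerebral artery occlusion (MCAO, 7 arrays) and after sham surgery (3 arrays), and FVB wild type mice after MCAO (7 arrays) and after sham surgery (3 arrays). In these mice the hemisphere on the operated side was taken 24 h after surgery. The naive groups were knockout mice (7 arrays) and wild type mice (8 arrays) without surgery, normalized by the authors on their own. The whole hemisphere was extracted, so each signal averages infarcted and spared tissue, and fewer cells of a type cannot be told apart from less RNA per cell. All values are log2 signals, on which a difference of 1 is a doubling of signal, and errors of differences are standard errors (SE) from limma.

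Some arrays stood apart. Wild type naive array 6 had a mean correlation of 0.819 with the other arrays of its set, where the median over wild type naive arrays was 0.98, and a Gapdh 3' minus 5' signal difference of 3.51 against a median of -0.16, which is a measure of RNA degradation. Knockout MCAO arrays 5 and 2 had Gapdh differences of 1.18 and 0.38, against a group median of -0.19 and values no higher than -0.13 in wild type MCAO arrays, and the highest means over the subunit genes of their group, 11.86 and 11.85. The 3' minus 5' difference of beta-actin was 1.66 ± 0.08 in knockout sham arrays and 0.93 ± 0.08 in wild type sham arrays (SD, n = 3 each). Between pairs of knockout naive arrays 3.87% to 6.38% of probe sets had exactly equal values, against at most 0.106% between pairs of wild type naive arrays, so genotype and normalization cannot be told apart in the naive set. The median of 12 neuron markers lay between 11.75 and 12.36 on every surgery array and between 12.08 and 12.95 on every naive array. That of 7 leukocyte markers lay between 5.61 and 7.24 on surgery arrays and between 6.26 and 7.51 on naive arrays.

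Promoters were read from RefSeq (GRCm38.p6), from 250 bases before to 50 after the transcription start, for the 31 listed genes that had an entry. NRF1, the GA-binding protein GABPA, YY1 and the estrogen-related receptors (ERR) are transcription factors known to act on respiratory chain genes, and 4 short motifs stood for them, searched on both strands with no overlap between their letters required or excluded. The NRF1 motif GCATGCG was in 5 of the 31 promoters (16.1%) and in 4.01% of all 27025 genes with a promoter. CCGGAAG (GABPA) was in 8 (25.8%) and in 9.93% of all. AAGATGG (YY1) was in 5 (16.1%) and in 7.28% of all, and AAGGTCA (ERR) in 1 (3.23%) and in 5.38% of all. The promoters of 4 genes are printed 5' to 3' on the gene's own strand with the motifs in capitals: Ndufb10 is the only subunit gene past the test in any comparison with all arrays, Ndufs7 had the next smallest p in that comparison, and Cox6a1 and Sdhb each hold both the NRF1 and the GABPA motif.
Ndufb10, chr17:24724374-24724673, minus strand, no motif: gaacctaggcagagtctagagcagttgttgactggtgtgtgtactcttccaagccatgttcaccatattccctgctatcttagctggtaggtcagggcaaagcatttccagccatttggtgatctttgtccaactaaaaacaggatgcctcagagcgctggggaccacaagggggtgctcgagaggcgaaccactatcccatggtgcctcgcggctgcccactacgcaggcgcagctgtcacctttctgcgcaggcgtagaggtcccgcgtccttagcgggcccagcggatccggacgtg
Ndufs7, chr10:80249199-80249498, plus strand, YY1: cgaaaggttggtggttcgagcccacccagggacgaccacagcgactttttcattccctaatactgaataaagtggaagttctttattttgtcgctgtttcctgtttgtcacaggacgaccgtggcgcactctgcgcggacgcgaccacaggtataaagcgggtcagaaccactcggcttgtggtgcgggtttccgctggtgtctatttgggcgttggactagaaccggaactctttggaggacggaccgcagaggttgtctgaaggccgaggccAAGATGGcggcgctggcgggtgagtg
Cox6a1, chr5:115348909-115349208, minus strand, NRF1 on both strands and GABPA: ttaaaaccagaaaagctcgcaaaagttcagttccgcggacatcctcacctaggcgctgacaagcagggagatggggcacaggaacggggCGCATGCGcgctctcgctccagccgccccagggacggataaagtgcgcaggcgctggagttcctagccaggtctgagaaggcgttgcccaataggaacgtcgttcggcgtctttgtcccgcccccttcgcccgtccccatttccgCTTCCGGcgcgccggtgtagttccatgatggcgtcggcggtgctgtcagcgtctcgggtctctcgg
Sdhb, chr4:140961021-140961320, plus strand, NRF1 and GABPA: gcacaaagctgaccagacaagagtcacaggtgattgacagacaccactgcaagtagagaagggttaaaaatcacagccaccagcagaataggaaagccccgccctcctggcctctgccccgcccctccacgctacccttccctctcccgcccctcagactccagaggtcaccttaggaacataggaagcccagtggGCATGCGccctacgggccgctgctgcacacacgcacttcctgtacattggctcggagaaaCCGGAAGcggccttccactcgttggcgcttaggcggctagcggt

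The first comparison asks how the subunit genes differ between the ischemic and the sham hemisphere of wild type mice. No subunit gene passed the test, 0 of 40, against 15.9% of all genes, 8.67% higher and 7.26% lower (limma, with a false discovery rate threshold of 0.05 by Benjamini and Hochberg's method). At an unadjusted p under 0.05 there were 7 of 40, against 31% of all genes. The changes were small and mostly below 0: 35 of 40 were negative, the median was -0.12, and they ran from -0.45 to 0.10. The median was -0.0096 with cyclic loess. All 40 of the 95% intervals lay within a doubling or halving of signal, and 36 lay within 0.5 on the log2 scale.

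Complex I genes had a median change of -0.13, with 19 of 22 below 0. Ndufs3, a core subunit of the peripheral arm, was at 11.29 ± 0.21 after MCAO and 11.60 ± 0.10 after sham (SD, n = 7 and 3), a difference of -0.31 (SE 0.12, limma adjusted p = 0.0752). Its groups did not overlap. Ndufa4, long counted with complex I and since found in cytochrome c oxidase, differed by -0.26 and Ndufa1, a small membrane arm subunit, by -0.19 (limma adjusted p = 0.139 for each).

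Sdhc, which anchors succinate dehydrogenase in the membrane and helps bind its haem, ranged in wild type mice from 9.86 to 10.92 after MCAO, with a median of 10.82, and read 11.24, 10.91 and 11.09 after sham. Arrays 4 and 3 of the MCAO group were far below the rest, and the groups overlapped narrowly. The difference was -0.45 (SE 0.17, limma adjusted p = 0.077), and without MCAO array 4 it was -0.32. Sdha, the flavoprotein subunit, and Sdhd, the other membrane anchor, differed by -0.13 each.

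Among complex III genes all 6 were below 0. Uqcrq, a small subunit close to the cytochrome b core, ranged from 10.99 to 11.35 after MCAO in wild type mice, with a median of 11.23, and read 11.64, 11.38 and 11.34 after sham. The highest MCAO array reached just above the lowest sham array, and the difference was -0.24 (SE 0.11, limma adjusted p = 0.123). Uqcrfs1, the Rieske iron-sulfur protein, differed by -0.19 and Uqcrc2, a core protein, by -0.13.

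For cytochrome c oxidase 7 of 8 genes were below 0. Cox6c, a small membrane subunit, was at 12.99 ± 0.06 after MCAO and 13.20 ± 0.06 after sham (SD, n = 7 and 3), a difference of -0.21 (SE 0.09, limma adjusted p = 0.124) with no overlap between groups. Cox6b1, which lies on the intermembrane side, differed by -0.15 and Cox7a2, a small membrane subunit, by -0.18. Of the 40 genes 7 had separate groups, against 19.9% of all genes. In those 7 the MCAO arrays all lay below the sham arrays, against 9.27% of all genes, and in 0 all above, against 10.6%.

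In knockout mice the same contrast, MCAO against sham, again had 0 of 40 subunit genes past the test, against 25% of all genes, 16.1% higher and 8.91% lower, and 5 of 40 at an unadjusted p under 0.05, against 38.6% of all genes (limma). Here 31 of 40 changes were above 0, with a median of 0.05 and a range from -0.24 to 0.30, but the median turned to -0.10 with each array centred on its median, -0.078 with repeated quantile normalization and -0.051 with cyclic loess. The mean array median was 7.52 in knockout MCAO arrays and 7.37 in knockout sham arrays. All 40 intervals lay within a doubling or halving.

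Ndufv2, an iron-sulfur subunit of the NADH-binding module, ranged from 11.87 to 12.17 after MCAO in knockout mice, with a median of 11.95, and read 11.83, 11.63 and 11.79 after sham, a difference of 0.25 (SE 0.09, limma adjusted p = 0.0521) with no overlap. Ndufb10, an accessory subunit of the membrane arm, differed by 0.26 and Ndufs7, which carries the last iron-sulfur cluster before ubiquinone, by 0.30 (limma adjusted p = 0.101 and 0.115). Their groups overlapped.

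Sdhb, the iron-sulfur subunit of succinate dehydrogenase, differed by 0.19 and Uqcrb, a small complex III subunit, by 0.23, while Sdha differed by 0.13, Sdhc by 0.06, Uqcrq by -0.10 and Cyc1, the haem protein that meets cytochrome c, by 0.06. The cytochrome c oxidase genes went both ways, 4 above and 4 below 0. Cox6c was at 13.01 ± 0.17 after MCAO and 13.25 ± 0.02 after sham (SD, n = 7 and 3), a difference of -0.24 (SE 0.09, limma adjusted p = 0.0598), and its groups did not overlap. Cox5a, a matrix-side subunit that binds a thyroid hormone metabolite, ranged from 12.51 to 12.75 after MCAO with a median of 12.59, and read 12.47, 12.41 and 12.37 after sham. All MCAO arrays of Cox5a lay above the sham arrays, with a difference of 0.19 (SE 0.09, limma adjusted p = 0.0967). Cox8a, a small membrane subunit, differed by -0.15. Groups were separate for 3 of the 40 genes, against 24.8% of all genes, with 2 higher after MCAO, against 15.6%, and 1, Cox6c, lower, against 9.17%.

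**Figure D1:**
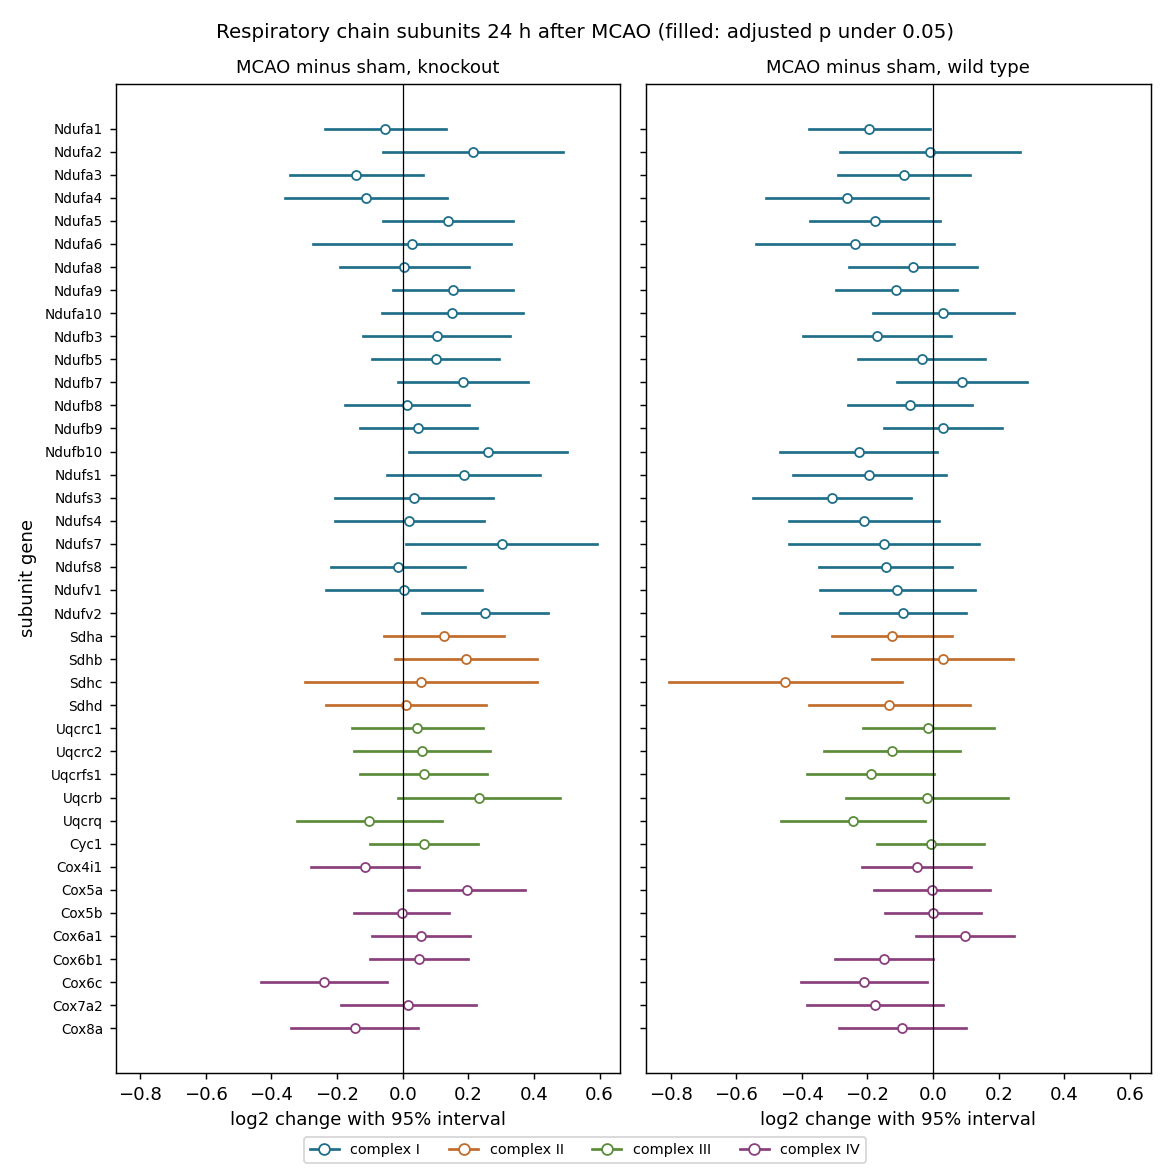
Log2 change after MCAO with its 95% interval (horizontal axis) for each subunit gene (vertical axis, coloured by complex), in knockout mice on the left and wild type mice on the right. No point is filled, since 0 of 40 passed the test in either genotype. In knockout mice 31 of 40 points lie above 0, and in wild type mice 35 of 40 lie below 0.

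The test of whether the MCAO change differed by genotype, knockout change minus wild type change, passed for 0 of 40 subunit genes, against 9.59% of all genes, 4.09% with a positive and 5.5% with a negative difference, and 8 of 40 came at an unadjusted p under 0.05, against 31.5% of all genes (limma). The median difference was 0.16 and 34 of 40 were above 0, but the median was -0.036 with repeated quantile normalization and -0.052 with cyclic loess. Ndufb10 had the smallest p, with a difference of 0.49 (SE 0.16, limma adjusted p = 0.0595), followed by Ndufv2 (0.34, SE 0.13) and Ndufs1, the largest iron-sulfur subunit of complex I (0.38, SE 0.16). Sdhc differed by 0.51 (SE 0.24, limma adjusted p = 0.155), with the only 1 of 40 intervals that reached past a doubling, up to 1.01, and without wild type MCAO array 4 it differed by 0.38. The other 4 genes at an unadjusted p under 0.05 were all of complex I, Ndufs7 (0.45), Ndufs3 (0.34), Ndufa5 (0.32) and Ndufa9 (0.27). The smallest p in complex III was that of Uqcrfs1 (0.25) and in cytochrome c oxidase that of Cox6b1 (0.20), neither past the test.

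Genotype was compared directly within each surgery. After MCAO the comparison of knockout with wild type mice gave few differences in subunit genes: 0 of 40 passed the test, against 0.044% of all genes, 0.0165% higher and 0.0275% lower, 1 had an unadjusted p under 0.05, against 17.4% of all genes (limma), and 0 had separate groups, against 0.368% of all genes, 0.247% higher and 0.121% lower. The median difference was -0.03, with a range from -0.16 to 0.25. The 1 gene was Ndufb9, an accessory membrane arm subunit, at 12.23 ± 0.10 in knockout and 12.39 ± 0.11 in wild type mice (SD, n = 7 each), a difference of -0.16 (SE 0.07, limma adjusted p = 0.233). For 39 of 40 genes the 95% interval lay within 0.5 on the log2 scale, the exception being Sdhc, at 10.88 ± 0.09 in knockout and 10.63 ± 0.41 in wild type mice (SD, n = 7 each). Its difference of 0.25 was 0.12 without wild type MCAO array 4. Cox5b, a zinc-binding subunit of cytochrome c oxidase, differed by -0.10 and Uqcrc1, a core protein of complex III, by 0.11.

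After sham surgery most subunit genes read lower in knockout than in wild type mice. Ndufb10 alone, 1 of 40, passed the test, against 6.05% of all genes, 3.52% higher and 2.53% lower, and 12 of 40 had an unadjusted p under 0.05, against 25.8% of all genes (limma). In 37 of 40 genes the difference was below 0, with a median of -0.19 and a range from -0.54 to 0.07, and the median was -0.017 with repeated quantile normalization and -0.043 with cyclic loess. Groups were separate in 21 of 40 genes, against 42.2% of all genes. In those 21 all knockout arrays lay below all wild type arrays, against 21.8% of all genes (20.4% lay above) and 809 of the 1820 genes in the brightest of 10 level bands.

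Ndufb10 read 10.90, 10.55 and 10.74 in knockout sham arrays, against 11.20, 11.39 and 11.19 in wild type sham arrays. The groups did not overlap, and every knockout array was low. Ndufb10 was lower, with a difference of -0.53 (SE 0.14, limma adjusted p = 0.0308, n = 3 each). After MCAO its range was 10.68 to 11.25 with a median of 11.01 in knockout mice and 10.75 to 11.24 with a median of 11.03 in wild type mice, and the groups overlapped almost wholly. The call after sham was lost in 9 of 18 other settings, among them repeated quantile normalization (-0.32, adjusted p = 0.15), cyclic loess (-0.37, adjusted p = 0.104), the beta-actin covariate (-0.41, adjusted p = 0.214) and 5 of the 6 fits that left out 1 sham array (adjusted p = 0.0639 to 0.137). Other settings raised the count of subunit genes called after sham, all lower but 1: to 19 with array weights, where 32.4% of all genes were called, to 7 with the mean of all probe sets (5.93%), to 5 with the sham arrays alone (18.7%) and to 2 with an intensity trend and robust prior (6.13%). Of the 6 fits without a sham array Ndufb10 was kept in the 1 without knockout sham array 1. Over all genes the count called after sham was 0 without wild type sham array 2 and 0 without knockout sham array 3, and that of the interaction was 0 without knockout sham array 3.

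Ndufs7 was at 10.69 ± 0.11 in knockout and 11.24 ± 0.07 in wild type sham arrays (SD, n = 3 each), a difference of -0.54 (SE 0.17, limma adjusted p = 0.0539). Ndufa5, an accessory subunit of the peripheral arm, differed by -0.34 (SE 0.11, limma adjusted p = 0.0679). All 22 complex I genes and all 4 complex II genes were below 0. In cytochrome c oxidase Cox6b1 differed by -0.23, Cox5a by -0.24 and Cox7a2, a small membrane subunit, by -0.26 (limma adjusted p between 0.1 and 0.172). Uqcrfs1 had the smallest p in complex III, with a difference of -0.21, and Sdhd in complex II, with -0.23.

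**Figure D2:**
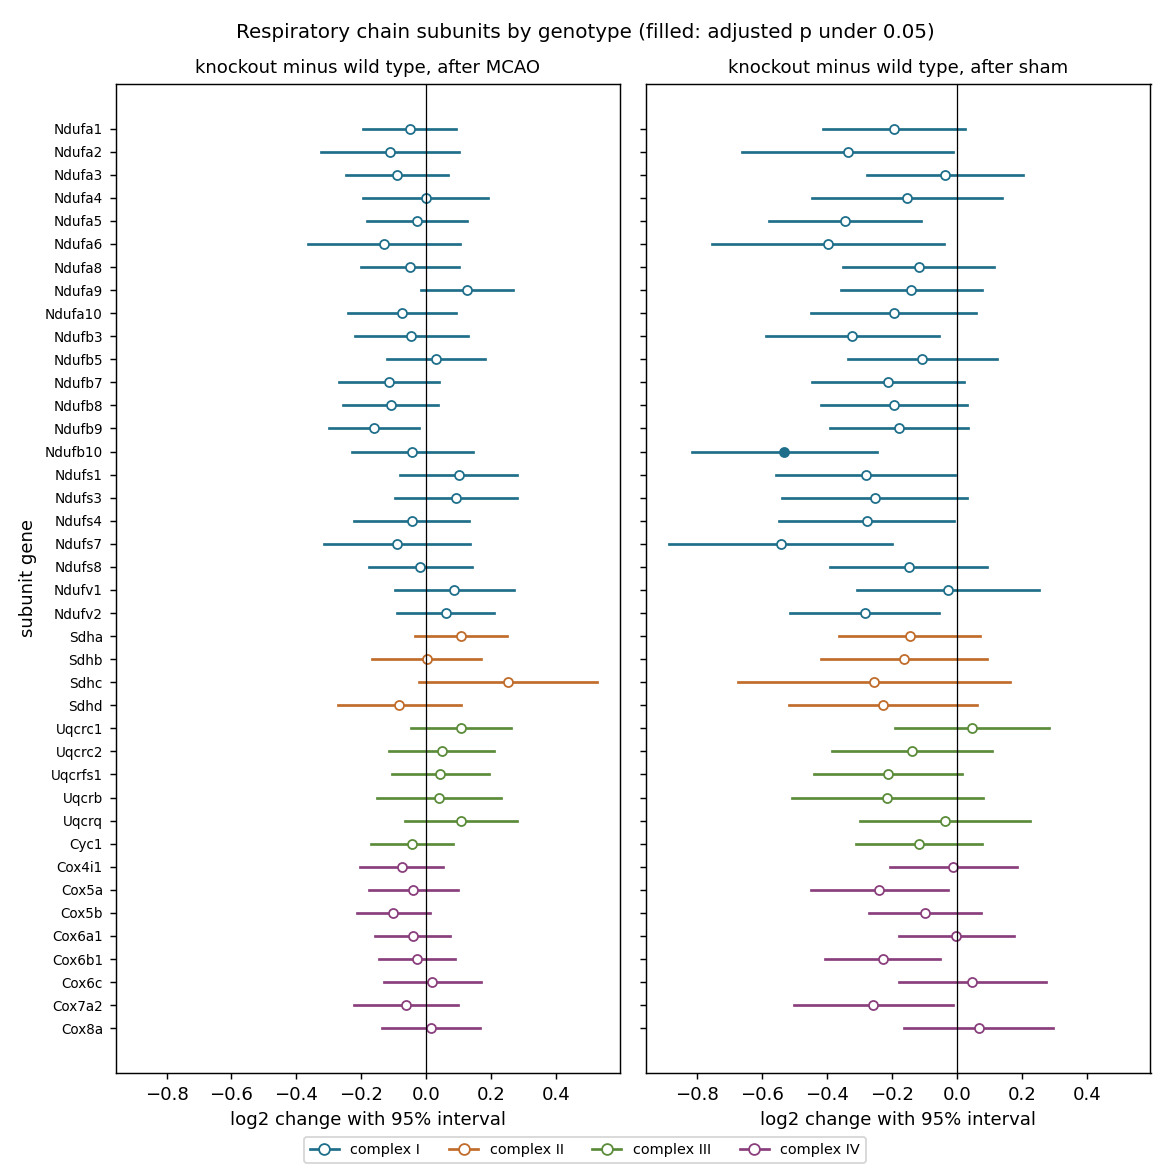
Log2 difference, knockout minus wild type, with its 95% interval (horizontal axis) for each subunit gene (vertical axis, coloured by complex), after MCAO on the left and after sham on the right. Points after MCAO lie between -0.16 and 0.25, and after sham 37 of 40 lie below 0, with Ndufb10 the only filled point, past the test.

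**Figure D3:**
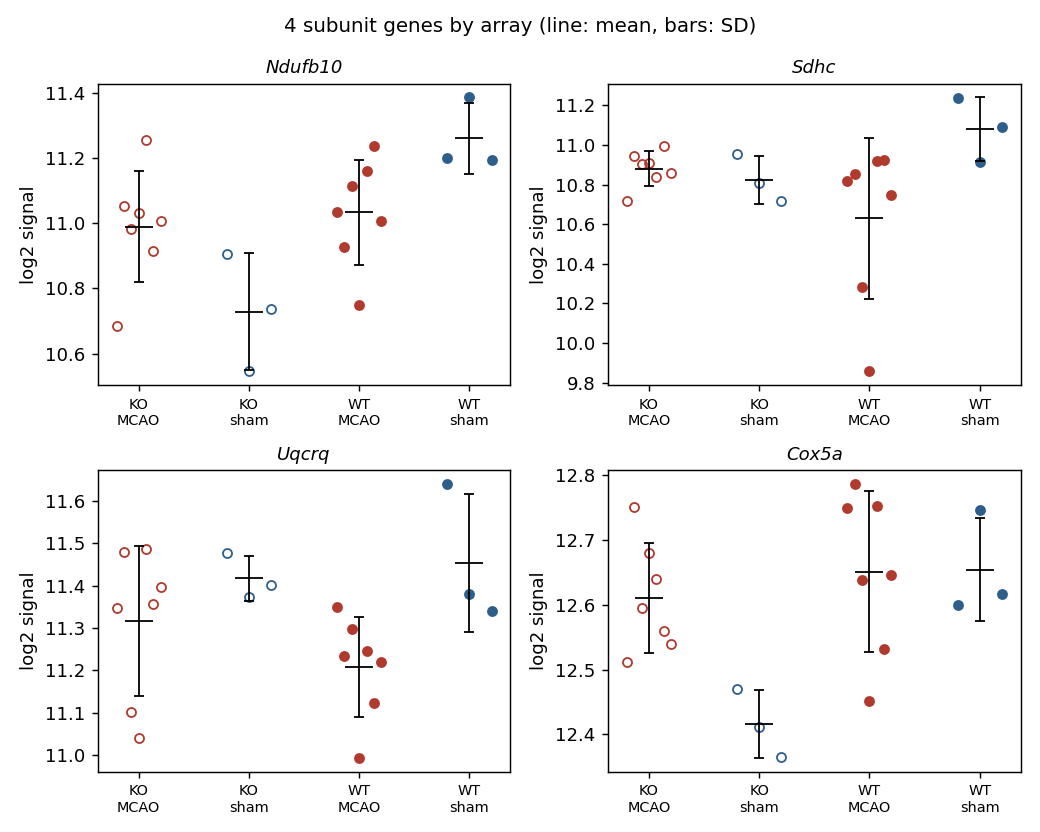
Log2 signal (vertical axis) of Ndufb10, Sdhc, Uqcrq and Cox5a on each surgery array, as points, with the mean as a line and the SD as bars. MCAO arrays are red and sham arrays blue, filled for wild type and open for knockout. The knockout sham points of Ndufb10 (10.55 to 10.90) and Cox5a (12.37 to 12.47) lie below all wild type sham points.

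Changes over all genes followed signal level. When all genes were put in 10 equal bands by mean signal, 39 of the 40 subunit genes fell in the brightest band. In knockout mice the median MCAO change was -0.13 in the dimmest band and 0.12 in the brightest, next to 0.05 for the subunit genes. In wild type mice it was 0.09 in the dimmest band and -0.11 in the brightest, next to -0.12 for the subunit genes. Between knockout and wild type sham arrays it was 0.16 in the dimmest and -0.16 in the brightest band, next to -0.19, and after MCAO it was -0.06 and 0.07, next to -0.03 for the subunit genes.

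The share of the brightest band that passed the test was 31.4% for MCAO in knockout mice, 20.6% in wild type mice, 7.03% for the interaction, 0% for genotype after MCAO and 6.7% for genotype after sham. Against these stand 0, 0, 0, 0 and 1 of the 40 subunit genes. Cytosolic ribosomal protein genes, another abundant class of 36 genes, had 27 higher and 0 lower after MCAO in knockout mice and 11 higher and 0 lower in wild type mice, with median changes of 0.42 in knockout and 0.22 in wild type mice. The interquartile range over all genes was 3.49 ± 0.05 in knockout sham arrays and 3.86 ± 0.10 in wild type sham arrays (SD, n = 3 each). The part of this spread in the sham results was not tested beyond the rescaled fits above.

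**Figure D4:**
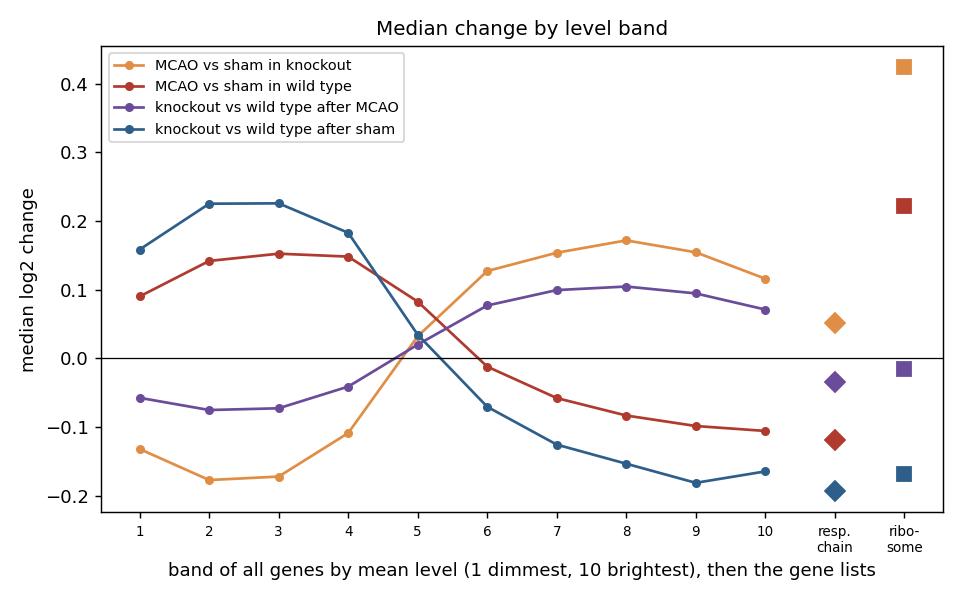
Median log2 change (vertical axis) of all genes in 10 bands of mean signal (circles, dimmest to brightest), of the respiratory chain genes (diamonds) and of the ribosomal protein genes (squares), for 4 comparisons by colour. In each comparison the dim and bright bands lie on opposite sides of 0; for MCAO the respiratory chain medians, 0.05 in knockout and -0.12 in wild type mice, lie below the ribosomal medians, 0.42 in knockout and 0.22 in wild type mice.

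The subunit genes had 85 probe sets in all, and the 45 further ones did not always match the probe set used. After sham 7 of the 45 were lower in knockout mice and 1 was higher, with p adjusted over all probe sets (limma), against 2.4% lower and 2.45% higher among all 34958 probe sets with 1 symbol. Both further probe sets of Cox5a were lower, one at -0.63 (SE 0.12, adjusted p = 0.0163) and the other at -0.48 (SE 0.11, adjusted p = 0.0247), where the one used gave -0.24 (SE 0.10, adjusted p = 0.155). The same 2 Cox5a probe sets were higher after MCAO in knockout mice, by 0.46 (adjusted p = 0.00356) and 0.33 (adjusted p = 0.0165), and passed the interaction test, at 0.60 (adjusted p = 0.0241) and 0.46 (adjusted p = 0.0404). For MCAO in knockout mice 5 of the 45 were higher and 3 lower, against 12.8% and 7.67% of all probe sets. For the interaction 5 were positive and 1 negative, against 3.64% and 3.87%. For MCAO in wild type mice 0 were higher and 2 lower, against 6.04% and 6.38%. Between genotypes after MCAO 0 were higher and 0 lower, against 0.0343% each. In naive brain, with all arrays, 2 were higher and 0 lower in knockout mice, against 6.89% and 9.39%.

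Ndufb5, a membrane arm subunit, had a further probe set that was lower in knockout mice after sham, at -0.62 (adjusted p = 0.0168), and so did the complex III core gene Uqcrc2, at -0.60 (adjusted p = 0.0223). All further probe sets, these included, had a lower mean signal than the one used for their gene. The dim further Uqcrq probe set went the other way, higher by 0.86 in knockout sham arrays (adjusted p = 0.0121). These genes were singled out after their values were seen. With the mean of all probe sets of a gene 7 subunit genes passed after sham, 6 lower and 1 higher, against 5.93% of all genes in that fit.

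In naive brain 0 of 40 subunit genes passed the test between knockout and wild type mice, against 14.7% of all genes, 6.36% higher and 8.3% lower, and 1 had an unadjusted p under 0.05, against 27.8% of all genes (limma). Groups were separate for 0 of 40, against 10.8% of all genes, 5.53% higher and 5.26% lower. Without wild type naive array 6, 1 gene, Cox5a, was lower, against 36.4% of all genes called, 24% higher and 12.4% lower. With that array left out 32 of 40 differences were below 0, with a median of -0.06 and a range from -0.23 to 0.06, and with it 20 of 40 were below 0. In the fit without it the median was 0.06 over all genes and 0.03 in the brightest level band. With all arrays kept, the median of the subunit genes was -0.17 with each array centred on its median. The mean array median was 8.10 in knockout and 7.92 in wild type arrays.

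Cox5a ranged from 12.86 to 13.01 with a median of 12.96 in knockout naive arrays, against 12.89 to 13.32 with a median of 13.12 in wild type naive arrays. Array 6 was the lowest of the wild type group, and without it the lowest was 13.10, above every knockout array. The difference was -0.20 (SE 0.06, limma adjusted p = 0.0543) with array 6 and -0.23 (SE 0.05, limma adjusted p = 0.0015) without it. One further Cox5a probe set gave -0.28 and the other -0.13, neither past the test with all arrays. Genotype and normalization cannot be told apart here.

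With the probe set used, no other subunit gene was past the test in either fit. Ndufb10 ranged from 11.47 to 11.68 with a median of 11.58 in knockout naive arrays and from 11.18 to 11.88 with a median of 11.63 in wild type naive arrays, so its groups overlapped. Sdhc ranged from 11.40 to 11.58 with a median of 11.52 in knockout naive arrays and from 5.34 to 11.79 with a median of 11.48 in wild type naive arrays. Uqcrq ranged from 11.60 to 11.91 with a median of 11.79 in knockout naive arrays and from 10.46 to 12.32 with a median of 11.79 in wild type naive arrays. For Sdhc and Uqcrq array 6 was the lowest, and for Ndufb10 it was the highest.

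On array 6 the subunit genes did not move as a block. Against the median of the other 7 wild type naive arrays 24 genes were lower and 16 higher, 19 by more than 1 below and 3 by more than 1 above, while the median over all genes was 0.22. Sdhc differed by -6.24, the complex III core gene Uqcrc1 by -5.14 and Ndufv1, the NADH-binding subunit of complex I, by -4.75, while Ndufa6 was higher by 1.40, Ndufs7 by 1.25 and Ndufa5 by 1.22. These were the extremes, named after their values were seen.

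**Figure D5:**
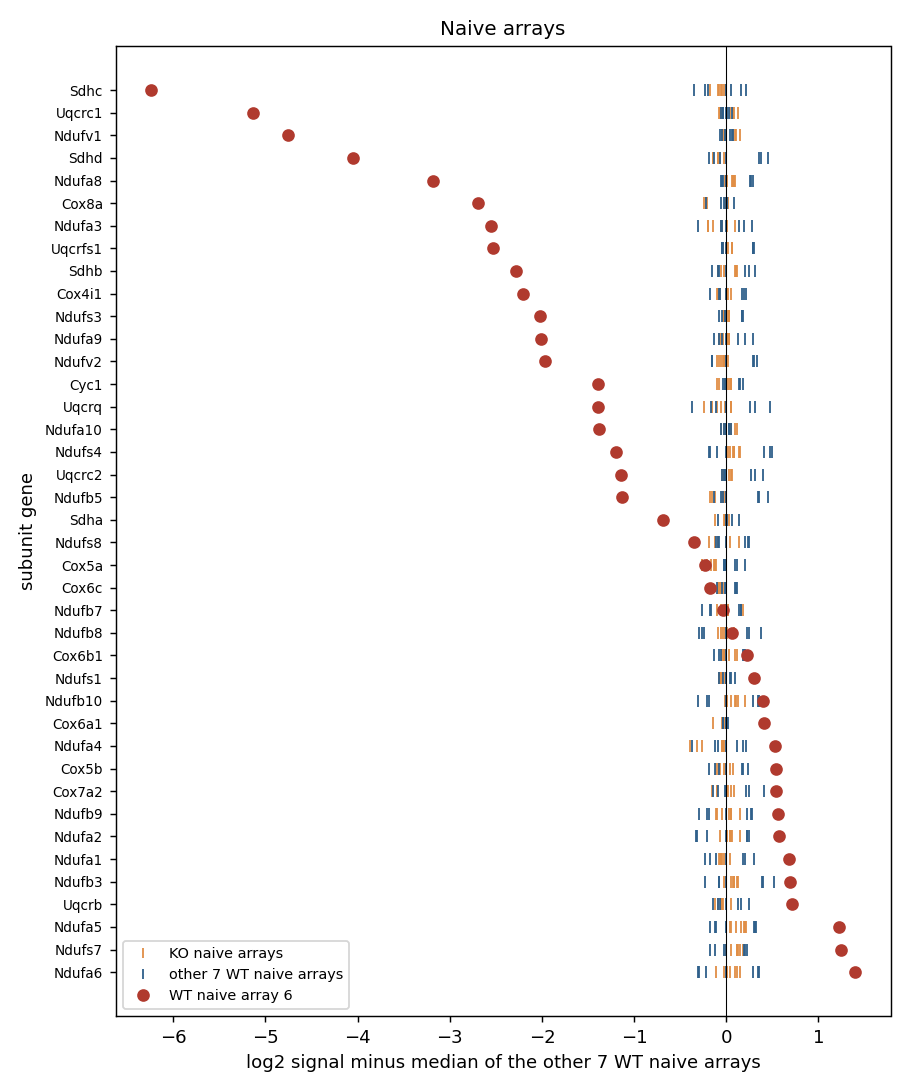
Log2 signal minus the median of the other 7 wild type naive arrays (horizontal axis) for each subunit gene (vertical axis, ordered by array 6). Orange ticks are knockout naive arrays, blue ticks the other wild type naive arrays and red points wild type naive array 6, which runs from -6.24 for Sdhc to 1.40 for Ndufa6.

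The spread within groups was small for most subunit genes. The median SD over the 40 genes was 0.13 in knockout MCAO, 0.08 in knockout sham, 0.12 in wild type MCAO and 0.08 in wild type sham arrays, and in naive arrays 0.06 for knockout and 0.47 for wild type, or 0.18 without array 6. The widest SD in wild type MCAO arrays was that of Sdhc, 0.41. Wild type MCAO array 4 was lowest for the median of the 40 genes, at 11.50 against a group median of 11.79, with a beta-actin 3' minus 5' difference of 1.70 against 0.93. Its part in the result is given by the fit without it, in which the median MCAO change of the subunit genes was -0.08.

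Neighbouring gene lists were read in the same fits, on the deposited scale only, and other scalings of these lists were not tested. After MCAO in wild type mice, where 8.67% of all genes were called higher and 7.26% lower, 3 of 17 ATP synthase genes were lower and 0 higher, with a median change of -0.15 and all 17 below 0. Atp5l, a membrane subunit, fell by 0.43 (SE 0.10, limma adjusted p = 0.0077), Atpif1, the inhibitor that stops ATP synthase from running in reverse, by 0.44 (SE 0.12, limma adjusted p = 0.0149) and Atp5e, a stalk subunit, by 0.43 (SE 0.14, limma adjusted p = 0.0449). Of 18 further respiratory chain genes 1 was lower, the complex I gene Ndufb2, at -0.53 (limma adjusted p = 0.00732). Of 40 assembly factors 6 were lower and 0 higher, with Coa3, a cytochrome c oxidase assembly factor, at -0.58, Ndufaf5, a complex I assembly factor, at -0.49 and Sdhaf4, which matures Sdha, at -0.46. The others were Ttc19 (-0.40), Sdhaf3 (-0.49) and Ndufaf1 (-0.43). Of 14 regulators of mitochondrial biogenesis Esrrg, an estrogen-related receptor (-0.64), and the coactivator Ppargc1b (-0.44) were lower. The citric acid cycle list had 0 of 15 called (limma), with 2 at an unadjusted p under 0.05, against 31% of all genes.

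After MCAO in knockout mice 16.1% of all genes were called higher and 8.91% lower, against which the list counts are to be read. Of 15 citric acid cycle and pyruvate dehydrogenase genes 7 were higher and 0 lower, among them Dld, the dihydrolipoamide dehydrogenase (0.48, SE 0.11, limma adjusted p = 0.00315), and Mdh2, the mitochondrial malate dehydrogenase (0.33, SE 0.10, limma adjusted p = 0.017), the others being Dlat, Dlst, Idh3a, Suclg1 and citrate synthase, Cs. Of the 6 hypoxia-responsive mitochondrial genes Higd1a (0.47) and the protease Lonp1 (0.32) were higher and Ndufa4l2 (-0.35) lower. Of the 14 regulators 6 were higher, Yy1 by 0.64, Gabpb1 by 0.53, Gabpa by 0.57, the PGC-1-related coactivator Pprc1 by 0.73, the mitochondrial DNA factor Tfam by 0.40 and the mitochondrial transcription factor Tfb2m by 0.39. Further respiratory chain genes were higher in 3 of 18 cases, Ndufc2 (0.44), cytochrome c itself, Cycs (0.42), and Ndufa12 (0.30). Of the ATP synthase genes Atp5pb, of the peripheral stalk, was higher (0.32) and Atp5d, of the central stalk, lower (-0.26). Cox15, which makes the haem of cytochrome c oxidase, rose by 0.61 and the complex I assembly factor Ndufaf4 by 0.41, the 2 called of 40 assembly factors.

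The interaction, passed by 4.09% of all genes with a positive difference, was passed by 2 of the 14 regulators, Yy1 (0.81, SE 0.18, limma adjusted p = 0.0182) and Tfam (0.58, SE 0.16, limma adjusted p = 0.0328), by 2 of 17 ATP synthase genes, Atpif1 (0.60) and Atp5pb (0.55), by Cycs (0.54) and Ndufa12 (0.43), by Dld (0.65) and by 3 of 40 assembly factors, Sdhaf3 (0.70), Ndufaf1 (0.65) and Ndufaf4 (0.62). Each of these was positive. The testis-type subunit Cox8c, of the 5 tissue-specific isoform genes, was negative (-0.72). The changes in the 2 genotypes and the interaction use the same sham arrays. After sham 2.53% of all genes were lower in knockout mice. Among 40 assembly factors 4 were lower in knockout sham arrays than in wild type sham arrays, Ndufaf4 (-0.65), Ndufaf2 (-0.55), Cox11 (-0.47) and Cox15 (-0.44), as were 2 ATP synthase genes, Atpif1 (-0.59) and Atp5pb (-0.45), and Dld (-0.57), Cycs (-0.54), Ndufc2 (-0.45) and Tfb2m (-0.51). As for all genes, 0 of these interaction and sham calls were made without knockout sham array 3. After MCAO 0 genes of these lists differed by genotype, against 0.044% of all genes (limma). At an unadjusted p under 0.05 there were 7 of the 14 regulators and 0 of 17 ATP synthase genes, against 17.4% of all genes.

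In naive brain the coactivator Ppargc1a, a main inducer of mitochondrial biogenesis, was the only gene of these mitochondrial lists past the test, higher in knockout mice by 0.41 (SE 0.13, limma adjusted p = 0.0465). Of all genes 6.36% were higher, and genotype and normalization cannot be told apart in this set. Without wild type naive array 6 Ppargc1a was higher by 0.31 (SE 0.08, limma adjusted p = 0.00513), and Ppargc1b (0.23) and the estrogen-related receptor Esrra (0.15) were higher too, making 3 of 14 regulators. In that fit, where 24% of all genes were called higher, 4 of 40 assembly factors, 3 of 15 citric acid cycle genes, 2 of 6 hypoxia-responsive genes and 1 of 18 further respiratory chain genes, Ndufv3 (0.33), were higher. The 2 of 17 ATP synthase genes called were lower, Atp5g3 (-0.15) and Atp5k (-0.21), where 12.4% of all genes were.

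Cell type markers moved with the surgery groups. In wild type mice 8.67% of all genes were called higher after MCAO and 7.26% lower. There 3 of 12 neuron markers were lower after MCAO and 0 higher, with all 12 below 0 and a median change of -0.31. The 3 were Tubb3 (-0.82), Nefl (-0.52) and Syt1 (-0.25). The median neuron marker signal ranged from 11.75 to 12.29 over wild type MCAO arrays and from 12.25 to 12.36 over wild type sham arrays. In knockout mice 16.1% of all genes were called higher after MCAO and 8.91% lower. There 1 of 12 neuron markers, Tubb3 (-0.51), was lower, near that share, and the median change was -0.16. The ranges of the neuron marker median were 12.05 to 12.27 after MCAO and 12.15 to 12.34 after sham. Of 7 leukocyte markers 2 were higher after MCAO in wild type mice, S100a8 (3.76) and S100a9 (3.61). The ranges of the leukocyte marker median there were 6.67 to 7.24 after MCAO and 5.62 to 5.87 after sham. In knockout mice 2 leukocyte markers were higher, S100a8 (2.10) and S100a9 (1.77), and 2 lower, Cd8a (-0.56) and Mpo (-0.53). The ranges of the median there were 5.61 to 7.09 after MCAO and 6.03 to 6.38 after sham. The median of 6 microglia markers ranged from 7.10 to 7.55 after MCAO and 8.02 to 8.24 after sham in knockout mice, and from 6.86 to 7.45 after MCAO and 8.02 to 8.33 after sham in wild type mice. That of 6 oligodendrocyte markers ranged from 11.18 to 11.96 after MCAO and 10.71 to 11.18 after sham in knockout mice, and from 11.53 to 12.20 after MCAO and 10.78 to 11.37 after sham in wild type mice. Endothelial markers (6) had a median of 7.95 to 8.98 after MCAO and 7.99 to 8.11 after sham in knockout mice, and of 8.51 to 9.53 after MCAO and 7.98 to 8.23 after sham in wild type mice, where the groups did not overlap. Cdh5, the endothelial cadherin, was higher after MCAO by 1.61 in knockout and 1.49 in wild type mice, and Pecam1 by 1.31 in knockout and 1.23 in wild type mice. In wild type mice Cldn5 (0.57) was also higher and Slco1c1 (-0.59) lower. Tek (0.75) was also higher in knockout mice, where Flt1 (-0.29) and Slco1c1 (-0.23) lay below 0 and were not called. The median of 8 astrocyte markers ranged from 10.77 to 11.14 after MCAO and 10.66 to 10.70 after sham in knockout mice, and from 10.71 to 11.19 after MCAO and 10.38 to 10.91 after sham in wild type mice, and Gfap, the intermediate filament of reactive astrocytes, was higher after MCAO by 2.13 in knockout and 1.95 in wild type mice. Aldh1l1 was higher too, by 0.46 in knockout and 0.57 in wild type mice. Gja1, Slc1a2, Slc1a3 and Aldoc lay below 0 in both genotypes, none called. The interaction was passed by P2ry12 (1.09) and Aif1 (0.60) of the microglia list, both positive. Of the leukocyte list Cd8a (-0.80), Mpo (-0.93) and Elane (-0.62) passed it, all negative. No other marker did. Of all genes 4.09% passed with a positive and 5.5% with a negative difference, and 0 passed without knockout sham array 3.

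Markers also differed by genotype in naive brain. The median of the microglia markers was 8.61 to 8.96 in knockout and 7.25 to 8.60 in wild type arrays, and that of the endothelial markers 8.63 to 8.82 in knockout and 7.79 to 8.48 in wild type arrays, with no overlap in either. With all arrays 6.36% of all genes were higher in knockout mice and 8.3% lower. Siglech (0.60) and Cx3cr1 (0.57) of the microglia list, Flt1 (0.57) of the endothelial list, Sox9 (0.54) of the astrocyte list and Camk2a (0.76) of the neuron list were higher in knockout mice, and S100a8 (-1.47), S100a9 (-1.42) and Mpo (-0.39) of the leukocyte list were lower. Without wild type naive array 6, 24% of all genes were higher and 12.4% lower. In that fit 5 of 6 microglia and 5 of 6 endothelial markers were higher and 0 lower. Of 7 leukocyte markers 1 was higher and 3 lower, and of 8 astrocyte markers 2 were higher and 1 lower. Of 12 neuron markers 2 were higher and 0 lower. The neuron marker median was 12.84 to 12.95 in knockout and 12.08 to 12.89 in wild type arrays, and the groups overlapped. The part of cell makeup in the changes of the subunit genes and lists was not tested.

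Among the 30 genes with both a promoter and a probe set, 16 held at least 1 of the 4 motifs, among them Ndufs7, Sdhb and Cox6a1. Their median change after MCAO was 0.03 in knockout and -0.10 in wild type mice, and that of the 14 without a motif was 0.10 in knockout and -0.15 in wild type mice. No test was made on these medians.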

How the data were processed

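Affymetrix mouse genome arrays were hybridised with RNA of brain hemispheres. The authors deposited log2 signals per probe set, made with RMA per the submitters' processing notes (version not given), with the naive arrays normalized separately per the labels. The sets were never compared in value. Of 45101 probe sets 34958 had 1 gene symbol, updated by Entrez ID; the brightest probe set by mean represented each of 18194 genes. The labels do not say that arrays are separate animals, so p-values measure the spread between arrays, and their number limits precision.

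Linear models with moderated variances (limma 3.58.1 under R 4.3.3) were run on the 20 surgery arrays together and, apart from them, on the 15 naive arrays. Calls needed an adjusted p under 0.05 (Benjamini and Hochberg), taken over the whole table. The fit was tested on simulated data. Members and lists were chosen with earlier results of these data known. Subunit genes are named where called or among the 3 smallest p of their complex. Values by array are given for called genes and for the smallest p of each complex. Called list genes are named in part, and ribosomal protein genes are given as counts. Other settings are in the closing section; fits without knockout MCAO arrays 2 and 5, rescaling without wild type naive array 6 and the test of every probe set were added after seeing the data. The targeted gene is not reported here.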

Additional observations from a re-analysis of the deposited data

Results flagged for a closer look

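Each subunit gene was examined in each group of 4 to 10 arrays for an array that stood far from the others relative to the range of the group, by Dixon's criterion, which chance meets in about 1 of 20 groups. Of 160 gene and group pairs 41 met it, and 25 of these were wild type naive array 6. That array was the lowest of its group for these complex I genes, with its log2 signal: Ndufa3 (10.21), Ndufa8 (8.82), Ndufa9 (9.40), Ndufa10 (10.90), Ndufb5 (11.22), Ndufs3 (10.10), Ndufs4 (8.76), Ndufv1 (7.29) and Ndufv2 (10.53). It was also the lowest for all complex II genes, Sdha (11.59), Sdhb (10.17), Sdhc (5.34) and Sdhd (7.45). In complexes III and IV it was lowest for Uqcrc1 (7.27), Uqcrc2 (11.20), Uqcrfs1 (9.49), Uqcrq (10.46) and Cyc1 (10.79), and for Cox4i1 (11.43) and Cox8a (10.54). The same array was the highest of its group for Ndufa5 (12.78), Ndufa6 (12.92), Ndufs7 (12.72), Uqcrb (14.19) and Cox6a1 (14.47). Its values of RNA quality and the fit without it stand in the report.

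Wild type MCAO array 4 was lowest for 9 genes: Ndufa5 (10.89), Ndufb5 (11.45), Ndufs1 (10.01), Ndufs3 (10.83), Ndufv2 (11.68), Sdhd (10.42), Uqcrc1 (11.50), Uqcrfs1 (10.75) and Cyc1 (11.58). The group medians were between 10.51 and 11.96. In knockout MCAO mice array 4 was lowest for Ndufb9 (12.01) and Sdhd (10.37) and highest for Uqcrfs1 (11.28). Wild type MCAO array 6 was lowest for Uqcrb (12.41). In knockout naive mice array 5 was highest for Ndufa1 (13.07) and lowest for Sdha (12.15), and array 1 was lowest for Cox6a1 (13.91).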

How the results depend on the processing

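The count of subunit genes called changed with the setting, and the share of all genes called in the same fit is given in parentheses. With each array centred on its median 4 were called for MCAO in wild type mice (17.2%), 4 in knockout mice (34.7%) and 3 in naive mice (14.7%), all lower. Repeated quantile normalization gave 2 for MCAO in knockout mice (20.1%), 0 for genotype after sham (1.67%) and 1 in naive mice (8.24%), and cyclic loess gave 1 (20%), 0 (0.209%) and 1 (10.3%). Array weights gave 5 for MCAO in wild type (24.6%), 8 in knockout mice (39.8%), 6 for the interaction (22.5%), 19 for genotype after sham (32.4%) and 4 in naive mice (42%). The beta-actin covariate gave 1 for MCAO in wild type (21.1%), 0 after sham (0.033%) and 1 in naive mice (34.3%), and the Gapdh covariate 1 for MCAO in knockout mice (19.6%) and 1 in naive mice (36.7%). An intensity trend with a robust prior gave 2 for MCAO in knockout mice (25%) and 2 after sham (6.13%), leaving out the dimmer genes 1 for MCAO in knockout mice (31.1%), and the mean of all probe sets 3 there (23.3%), 1 for the interaction (9%) and 7 after sham (5.93%). After sham 5 were called when only the arrays compared were fitted (18.7%) and 0 at an adjusted p under 0.01 (0.033%). Leaving out knockout MCAO arrays 2 and 5, those with a high Gapdh 3' minus 5' difference, gave 1 for MCAO in knockout mice (20.2%), and rescaling the naive set without wild type array 6 gave 3 by quantile normalization (22.2%) and 3 by cyclic loess (24%).

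The median change of the subunit genes moved to -0.0096 for MCAO in wild type mice with cyclic loess. For MCAO in knockout mice it was -0.10 after centring, -0.078 after quantile normalization and -0.051 after cyclic loess, for the interaction 0.058, -0.036 and -0.052, and after sham -0.017 after quantile normalization and -0.043 after cyclic loess. Sdhd in naive mice was 0.31 and turned to -0.29 with array weights, and to -0.24 and -0.26 with quantile normalization and cyclic loess without array 6, each called lower. The cause of these moves was not tested.

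Leaving out 1 array at a time, the count called ranged from 0 to 0 for MCAO in wild type mice, 0 to 3 in knockout mice, 0 to 1 for the interaction, 0 to 0 for genotype after MCAO, 0 to 1 after sham and 0 to 1 in naive mice. The 3 in knockout mice came without knockout MCAO array 1, and the 1 in naive mice without wild type array 6. In that naive fit 36.4% of all genes were called. Apart from the sham fits at the end of this paragraph, the share is not given here for the other fits. Their counts therefore cannot be set against it. The median change ranged from -0.15 to -0.08, 0.04 to 0.07, 0.13 to 0.20, -0.06 to -0.0055, -0.23 to -0.14 and -0.06 to 0.05 in the same order. Without wild type sham array 2, or without knockout sham array 3, 0 of all genes were called after sham.

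Whether arrays with the same replicate number share more than that number was not settled by the correlations of their deviations. For MCAO and sham arrays 1 of 3 wild type pairs and 0 of 3 knockout pairs correlated over 0.1. Between genotypes it was 2 of 7 pairs after MCAO, 2 of 3 after sham and 5 of 7 in naive brain. Not every array correlated best with its own number. With the number as a replicate block the count called was 0 in 5 comparisons and 1 after sham, where Ndufb10 was at -0.53 (limma adjusted p = 0.0468). The share of all genes called in the block fit is not given here, so these counts cannot be set against it.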
